A study of Mus musculus with 12 samples.

Results

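AMP-activated protein kinase (AMPK) was examined at the level of its transcripts, with the 7 genes for its subunits and the genes for its upstream kinases LKB1 (Stk11) and CaMKK2 (Camkk2). These 9 genes were chosen by name, all 9 were found among the 17752 genes of the expression table, and all 9 passed the filter on low values that left 12744 genes for testing. The tissue was the fast-twitch extensor digitorum longus (EDL) of the hind limb. Male mice stayed sedentary or had access to voluntary running wheels from 8 weeks of age. There were 4 groups of 3 libraries. They were WT control sedentary, strNrip1-/- sedentary, WT control trained and strNrip1-/- trained. In strNrip1-/- mice a Cre recombinase under the muscle creatine kinase promoter removes floxed Nrip1, the gene for the corepressor RIP140, from heart and skeletal muscle, so that other cells of the EDL keep it. WT controls were littermates, and all groups were on wheel or sedentary conditions in the same training study. Nrip1 itself went against these labels. It averaged 3.33 and 3.62 FPKM in libraries labelled WT and 15.5 and 17.4 FPKM in those labelled strNrip1-/- (sedentary and trained). The level of Nrip1 thus does not bear out the labels, and each genotype direction is given by label. The value is summed over the whole gene and does not separate the deleted part from the rest. Mb (myoglobin) was higher and the fast-fiber genes Actn3 and Myh4 were lower with the label strNrip1-/- (averaged log2 fold changes of 0.81, -0.83 and -0.37). Here libraries are described as labelled WT or labelled strNrip1-/-.

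AMPK senses the energy state of the cell. It is a heterotrimer of a catalytic α subunit (Prkaa1, Prkaa2), a scaffold β subunit (Prkab1, Prkab2) and a γ subunit (Prkag1, Prkag2, Prkag3) that binds AMP, ADP and ATP. LKB1, in a complex with a STRAD pseudokinase and an MO25 protein, phosphorylates the activation loop of the α subunit when AMP is high, and CaMKK2 does so when calcium rises. Active AMPK promotes glucose uptake and fatty acid oxidation and restrains lipid and glycogen synthesis. In skeletal muscle the complex of α2, β2 and γ3 is characteristic of fast glycolytic fibers.

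Transcripts of this fast-muscle trimer, and of no other AMPK gene, passed the test between the labelled genotypes. In libraries labelled strNrip1-/-, Prkag3 decreased by 53.7% in sedentary and by 45.8% in trained muscle. Prkab2 decreased by 25.0% and by 30.3%. Prkaa2 decreased by 23.9% in trained muscle. Its sedentary difference did not pass. Prkaa1, Prkab1, Prkag1, Prkag2, Stk11 and Camkk2 did not pass, and no member passed for training or for the interaction of genotype and training. Whether the effect on the 3 genes differed from that on the other 6 was not tested.

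The unit throughout is FPKM (fragments per kilobase of transcript, scaled by depth), which is per length and so lets genes be compared. The median ratio of a library to the mean of each gene was 0.9947 to 1.009. From this, scaling between libraries before deposit is inferred. Fold changes are differences of log2(FPKM + 0.5), always labelled strNrip1-/- over labelled WT or trained over sedentary, estimated with limma over all 12 libraries. A gene was called at a Benjamini-Hochberg adjusted p under 0.05 and a fold change above 1.2. The labels do not say that the libraries of a group came from separate animals, so p-values measure the spread between libraries. By the spacing of low values the FPKM of a library were scaled to 20.6 M to 30.1 M fragments (M, 1e6). At that scale 1 FPKM on a transcript of 2 kb stood for 41.2 to 60.2 fragments. With scaling between libraries, this need not be the number of fragments a library held. Mitochondrial transcripts took 42.2% to 52.8% of the summed FPKM.

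The 9 genes spanned a wide range of expression. By the mean over 12 libraries the order was Prkab2 (82.6 FPKM), Stk11 (70.7), Prkag3 (45.3), Prkag1 (38.0), Prkaa2 (20.8), Prkab1 (7.69), Prkag2 (5.97), Prkaa1 (3.51) and Camkk2 (1.74 FPKM). Prkab2 stood above 93.2% of the tested genes and Camkk2 above 22.3%. The ranges of Prkab2 and Stk11, of Stk11 and Prkag3, of Prkag3 and Prkag1, and of Prkab1 and Prkag2 overlapped over the 12 libraries. Every library of Prkaa2 lay above every library of Prkab1. These pooled ranges mix the labelled genotypes. Within single libraries, Prkab2 was above Stk11 in every labelled WT library and in every labelled strNrip1-/- sedentary library. It was below Stk11 in every labelled strNrip1-/- trained library.

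**Figure D1:**
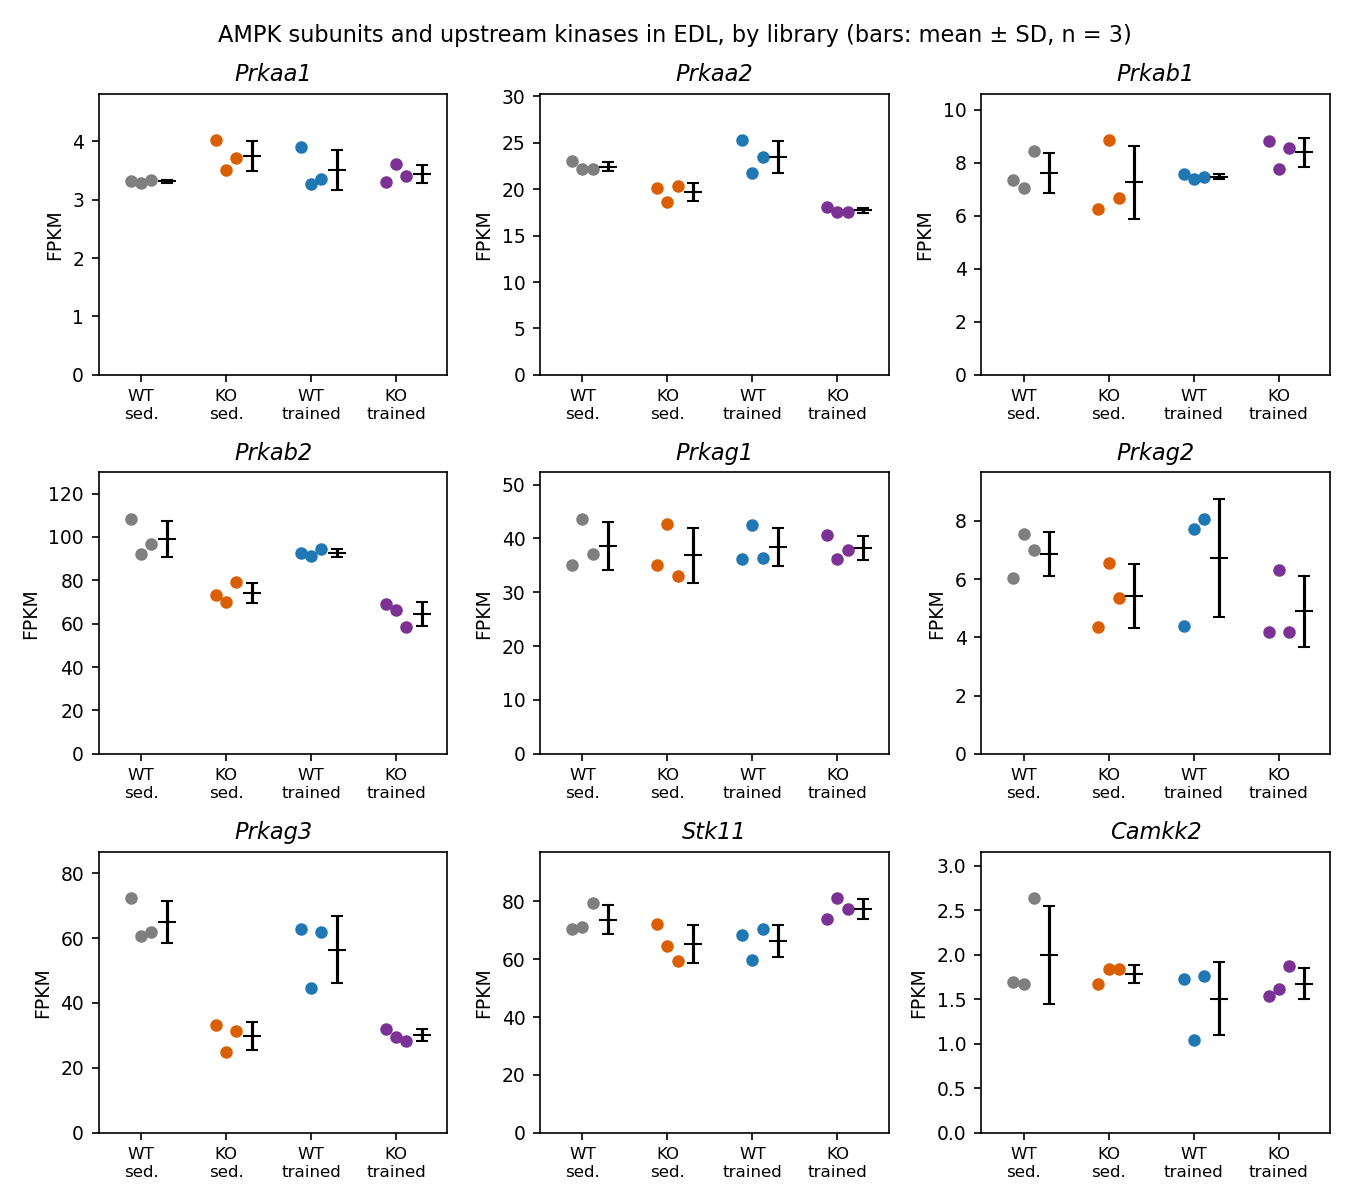
FPKM (y axis, linear from 0) of each gene in the 12 libraries. Points are single libraries in 4 groups (WT and KO stand for the labels WT and strNrip1-/-, sed. for sedentary), and the black bars are the group mean ± SD (n = 3). For Prkag3, Prkab2 and Prkaa2 the highest KO library lay below the lowest WT library, at 33.3 against 44.5, 79.2 against 91.0 and 20.3 against 21.8 FPKM.

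Prkag3 (ENSMUSG00000006542) encodes γ3, the γ subunit of fast-twitch muscle. It lies on the minus strand at chr1:74738922-74749221 (GRCm38). Labelled WT sedentary libraries held 72.2, 60.6 and 61.8 FPKM and labelled strNrip1-/- sedentary libraries 33.3, 25.0 and 31.2 FPKM. Labelled WT trained libraries held 62.8, 44.5 and 61.9 FPKM and labelled strNrip1-/- trained libraries 32.0, 29.7 and 28.4 FPKM. All 6 labelled strNrip1-/- libraries lay below all 6 labelled WT libraries. The group means were 64.9 ± 6.40 against 29.9 ± 4.34 FPKM in sedentary and 56.4 ± 10.3 against 30.0 ± 1.83 FPKM in trained muscle (SD, n = 3 each). The log2 fold change was -1.11 in sedentary muscle (SE 0.143, 95% interval -1.43 to -0.80, limma adjusted p = 0.00181). In trained muscle it was -0.88 (SE 0.143, interval -1.20 to -0.57, limma adjusted p = 0.00539). Both calls held under all 22 alternatives tried, with log2 fold changes from -1.27 to -0.99 and from -1.04 to -0.80. The labelled WT trained group had the widest spread, with replicate 2 lowest. The 2 genotype effects differed by 0.23 (interval -0.21 to 0.67, limma adjusted p = 0.808), which did not pass.

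Prkab2 (ENSMUSG00000038205) encodes β2, the scaffold isoform that predominates in skeletal muscle and carries a glycogen-binding module. It lies on the plus strand at chr3:97658193-97673812. It was the highest of the 9 genes in labelled WT muscle, at 108, 92.3 and 96.8 FPKM in sedentary and 92.5, 91.0 and 94.6 FPKM in trained libraries. Labelled strNrip1-/- libraries held 73.0, 70.0 and 79.2 FPKM when sedentary and 69.2, 66.2 and 58.4 FPKM when trained. The labelled genotypes again did not overlap. Means were 99.1 ± 8.14 against 74.1 ± 4.70 FPKM in sedentary and 92.7 ± 1.81 against 64.6 ± 5.54 FPKM in trained muscle (SD, n = 3 each). The log2 fold change was -0.42 in sedentary (SE 0.0825, limma adjusted p = 0.0199) and -0.52 in trained libraries (SE 0.0825, limma adjusted p = 0.00472). The sedentary call was the less firm. It was lost without labelled WT sedentary replicate 1 (adjusted p = 0.0913) or 3 (0.0583) and without labelled strNrip1-/- sedentary replicate 1 (0.0652) or 2 (0.0586), while the log2 fold change stayed between -0.57 and -0.34 over all 22 alternatives.

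Prkaa2 (ENSMUSG00000028518) encodes α2, the main catalytic isoform of skeletal muscle. It lies on the minus strand at chr4:105029874-105109890. Labelled WT libraries held 23.1, 22.1 and 22.1 FPKM when sedentary and 25.3, 21.8 and 23.5 FPKM when trained. Labelled strNrip1-/- libraries held 20.1, 18.6 and 20.3 FPKM when sedentary and 18.0, 17.6 and 17.6 FPKM when trained. All 6 labelled strNrip1-/- libraries were below all labelled WT libraries, with the trained ones lowest. Means were 22.4 ± 0.533 against 19.7 ± 0.939 FPKM in sedentary and 23.5 ± 1.76 against 17.7 ± 0.265 FPKM in trained muscle (SD, n = 3 each). The log2 fold change was -0.18 in sedentary muscle (SE 0.0700, limma adjusted p = 0.209) and -0.39 in trained muscle (SE 0.0700, limma adjusted p = 0.00867). The difference between these effects was -0.21 (interval -0.43 to 0.01, limma adjusted p = 0.644), so a larger effect in trained muscle was not shown.

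Averaged over both training states, the log2 fold change was -0.998 for Prkag3 (SE 0.101, limma adjusted p = 1.131e-04), -0.47 for Prkab2 (SE 0.0583, adjusted p = 5.082e-04) and -0.29 for Prkaa2 (SE 0.0495, adjusted p = 0.00348). Of the 9 members, 2 were called lower in sedentary muscle, 3 in trained muscle and 3 in the average, and none was called higher. Over all tested genes, 1.59% were called lower in sedentary muscle (3.51% in either direction), 2.77% in trained muscle (5.98%) and 3.91% in the average (8.80%). Complete separation of the 6 labelled strNrip1-/- libraries below the 6 labelled WT libraries was seen for 3 of 9 members and for 3.23% of all tested genes. Within sedentary libraries alone, 10.9% of all tested genes separated in that direction, and within trained libraries 13.4%. Rescaling each library to the same summed FPKM left Prkag3 as the single member called in trained muscle, with adjusted p-values of 0.0615 for Prkab2 and 0.155 for Prkaa2. Rescaling on nuclear genes alone ended the sedentary call of Prkab2 (adjusted p = 0.202) and both calls of Prkaa2 (0.127 in trained libraries and 0.128 in the average). The averaged Prkaa2 effect also fell short of the 1.2-fold threshold without labelled WT trained replicate 1, at -0.26 with an adjusted p of 0.00986.

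**Figure D2:**
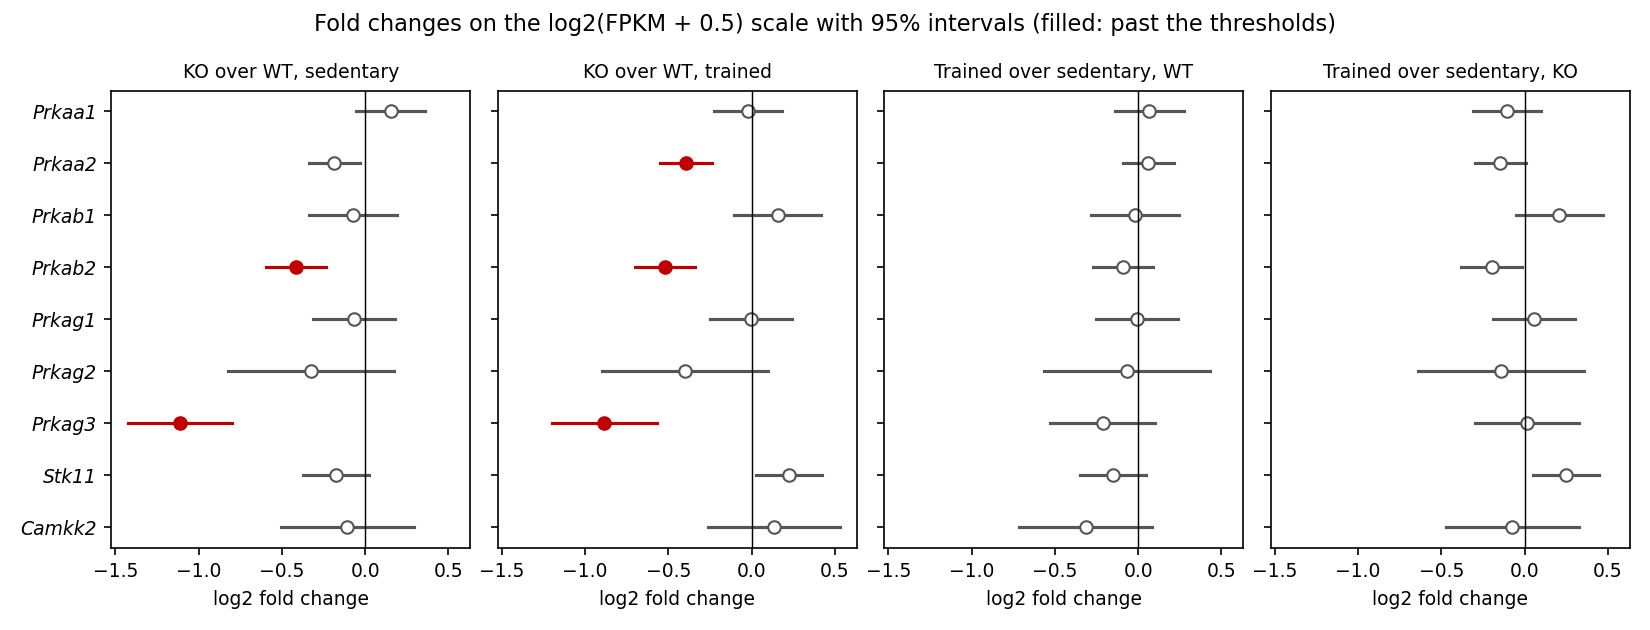
Log2 fold changes (x axis) of the 9 genes (y axis) in 4 contrasts, with KO over WT standing for labelled strNrip1-/- over labelled WT. Circles are limma estimates, lines are 95% intervals, and filled red circles passed an adjusted p of 0.05 and a fold change of 1.2. Only Prkag3, Prkab2 and, in trained muscle, Prkaa2 are filled, all to the left of 0, and no circle is filled in either training panel.

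The remaining subunits did not pass in any of the 7 contrasts. Prkaa1 encodes α1, the catalytic isoform of most other tissues (chr15:5143861-5181899). It ranged from 3.28 to 3.91 FPKM in labelled WT and from 3.31 to 4.02 FPKM in labelled strNrip1-/- libraries, and its averaged log2 fold change was 0.06 (interval -0.08 to 0.21, limma adjusted p = 0.622). Prkab1 encodes β1 (chr5:116013586-116024508) and ranged from 7.04 to 8.45 and from 6.26 to 8.85 FPKM, with 0.04 (interval -0.14 to 0.23, limma adjusted p = 0.829). Prkag1 encodes γ1, the broadly expressed γ subunit (chr15:98812797-98831521). It ranged from 35.1 to 43.5 and from 33.0 to 42.6 FPKM, with -0.04 (interval -0.21 to 0.14, limma adjusted p = 0.848). These intervals leave out a change of the size seen for Prkag3. For Prkag1, 950 exonic bases overlap the antisense gene B130046B21Rik, and the NEBNext Ultra RNA kit named in the labels is not known to mark strand. Whether counting used strand is not stated in the sources used here, so reads in these shared bases could come from either gene.

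Prkag2 encodes γ2, the isoform linked to inherited cardiac glycogen storage disease (chr5:24862744-25100642). It varied most within groups. Labelled WT libraries held 6.03, 7.54 and 6.98 FPKM when sedentary and 4.38, 7.71 and 8.05 FPKM when trained, and labelled strNrip1-/- libraries held 4.36, 6.56 and 5.34 FPKM and 4.19, 6.30 and 4.19 FPKM. The labelled genotypes overlapped. The averaged log2 fold change was -0.36 (interval -0.71 to -0.01, limma unadjusted p = 0.0459, adjusted p = 0.197). Without labelled WT trained replicate 1, its lowest labelled WT library, the value was -0.49 and passed (adjusted p = 0.0435). The antisense genes Prkag2os1 and Prkag2os2 overlap its exons over 142 and 795 bases.

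Of the upstream kinases, Stk11 (LKB1, chr10:80115803-80130682) was highly expressed and Camkk2 (chr5:122731170-122779409) near the lower end. Stk11 was at 70.5, 71.0 and 79.5 FPKM in labelled WT sedentary and at 72.2, 64.4 and 59.3 FPKM in labelled strNrip1-/- sedentary libraries. Trained libraries held 68.3, 59.9 and 70.6 FPKM with the label WT and 74.0, 81.0 and 77.2 FPKM with the label strNrip1-/-. The genotypes overlapped in sedentary muscle, and in trained muscle all 3 labelled strNrip1-/- libraries were higher, a separation that 13.9% of all tested genes showed in that direction. The log2 fold change between labelled genotypes was -0.18 in sedentary (interval -0.37 to 0.02) and 0.23 in trained muscle (interval 0.03 to 0.42). The interaction of 0.40 (SE 0.128) had the smallest unadjusted p of the 9 genes (0.00932) and did not pass over all genes (limma adjusted p = 0.566). The fold changes of all 6 Schwann cell markers had the same signs, negative in sedentary and positive in trained muscle, with 3 of 6 at an unadjusted p under 0.05 in the interaction and none called. Their summed level was 76.8 to 111.5 FPKM in labelled WT and 52.1 to 77.9 FPKM in labelled strNrip1-/- sedentary libraries, and 50.3 to 66.6 and 63.6 to 100.6 FPKM in trained libraries, and their part in the Stk11 values was not tested. Camkk2 ranged from 1.04 to 2.63 FPKM in labelled WT and from 1.54 to 1.87 FPKM in labelled strNrip1-/- libraries. Its averaged log2 fold change was 0.01 (interval -0.27 to 0.30, limma adjusted p = 0.969), so changes within that interval were not excluded at this spread.

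Training called none of the 9 members with limma in either labelled genotype, nor in the average. The interaction called none either. Over all tested genes, 0.00% were called for training within either labelled genotype, 0.118% for training averaged over both and 0.00% for the interaction. An unadjusted p under 0.05 was reached by 0 members for training in labelled WT and by 2 members (Prkab2 and Stk11) in labelled strNrip1-/- libraries, against 8.33% and 12.1% of all tested genes. The averaged training contrast had 1 such member (Prkab2) and the interaction had 1 (Stk11), against 11.5% and 7.76% of all tested genes. For Stk11 the trained libraries labelled strNrip1-/- (74.0 to 81.0 FPKM) lay above the sedentary ones (59.3 to 72.2 FPKM), as 9.40% of all tested genes did, and the log2 difference was 0.25 (interval 0.05 to 0.45, limma adjusted p = 0.324). For Prkab2 the trained libraries labelled strNrip1-/- (58.4 to 69.2 FPKM) lay below the sedentary ones (70.0 to 79.2 FPKM), as 7.50% of all tested genes did, and the log2 difference was -0.20 (interval -0.38 to -0.02, limma adjusted p = 0.377). For Prkag3 the training values were -0.21 in labelled WT (interval -0.53 to 0.10) and 0.02 in labelled strNrip1-/- muscle (interval -0.30 to 0.33).

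Because FPKM is per length, the paralogs of each subunit were also compared within a library, which does not depend on scaling between libraries. Prkag3 made up 58.8% ± 4.74 of γ transcripts in labelled WT sedentary and 41.5% ± 6.77 in labelled strNrip1-/- sedentary muscle, and 55.3% ± 7.31 and 41.0% ± 0.669 in trained muscle (SD, n = 3 each). Labelled WT libraries ran from 47.0% to 63.7% and labelled strNrip1-/- libraries from 33.7% to 45.8%. Prkag1 took 35.0% and 51.0% in sedentary and 38.0% and 52.3% in trained muscle. In every labelled WT library Prkag3 was above Prkag1, and in every labelled strNrip1-/- library Prkag1 was above Prkag3. The share of Prkag2 stayed between 4.24% and 8.85%.

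The α and β subunits kept their leading paralog. Prkaa2 made up 87.1% ± 0.280 of α transcripts in labelled WT and 84.0% ± 0.602 in labelled strNrip1-/- sedentary muscle, and 87.0% ± 0.456 and 83.7% ± 0.770 in trained muscle. Labelled WT libraries (86.6% to 87.5%) and labelled strNrip1-/- libraries (83.0% to 84.6%) did not overlap. Prkab2 made up 92.8% ± 0.833 and 91.0% ± 1.95 of β transcripts in sedentary muscle, where the labelled genotypes overlapped, and 92.5% ± 0.143 and 88.5% ± 1.149 in trained muscle, where they did not. The summed γ transcripts were 110.3 ± 3.88 FPKM in labelled WT and 72.2 ± 2.39 FPKM in labelled strNrip1-/- sedentary muscle, and 101.4 ± 6.10 and 73.1 ± 3.29 FPKM in trained muscle. The summed β transcripts were 107 ± 8.15 and 81.4 ± 3.96 FPKM in sedentary and 100.2 ± 1.83 and 73.0 ± 5.56 FPKM in trained muscle. The summed α transcripts were the fewest, at 25.8 ± 0.533 and 23.5 ± 1.14 FPKM and at 27.0 ± 2.08 and 21.2 ± 0.186 FPKM. Shares and sums are descriptions of transcripts, with no test, and say nothing of protein.

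**Figure D3:**
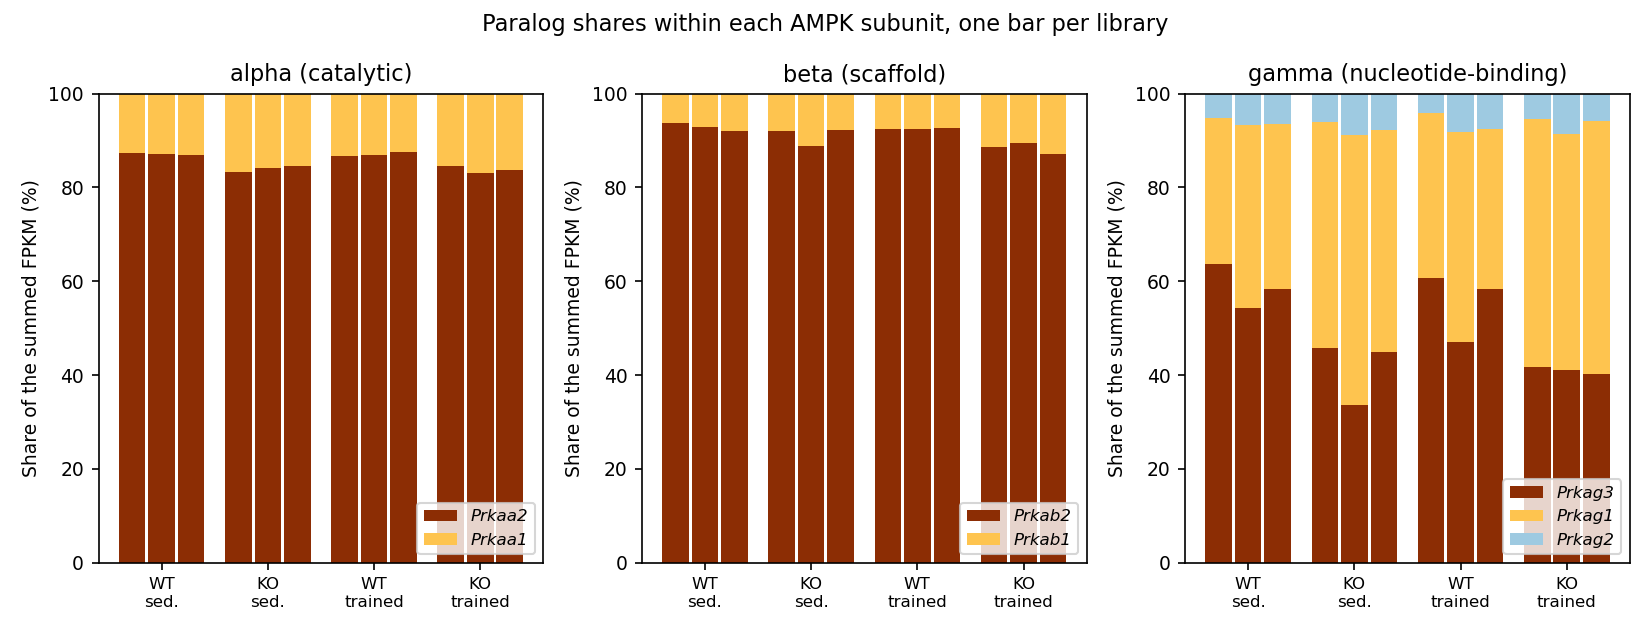
Share (y axis, percent) of each paralog in the summed FPKM of its subunit, with 1 bar per library and 3 libraries per group (WT and KO stand for the labels WT and strNrip1-/-). In the γ panel the Prkag3 segment reaches 47.0% to 63.7% in WT and 33.7% to 45.8% in KO libraries, while Prkaa2 and Prkab2 fill over 80% of every bar in the other panels.

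The cell types in the libraries were examined beside these values. The defining markers of fast muscle were present in every library, with a summed level of 9 fast glycolytic markers of 119200 to 132800 FPKM in labelled WT and 89940 to 121600 FPKM in labelled strNrip1-/- sedentary libraries, and of 117000 to 140100 and 98680 to 105300 FPKM in trained libraries. In the averaged genotype contrast all 9 had a negative log2 fold change and 5 were called lower. These were Actn3 (α-actinin of fast fibers, -0.83, limma adjusted p = 1.401e-05), Myl1 (-0.58, 0.00458), Mybpc2 (-0.53, 1.531e-04), Pvalb (-0.38, 0.0403) and Myh4 (the myosin of type IIB fibers, -0.37, 0.0222). Prkag3 is known as a gene of the same fibers. In bulk muscle, fewer fibers of a type and less RNA per fiber cannot be told apart, and the part of fiber composition in the AMPK values was not tested.

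The 3 called members were set against Myh4 and Actn3 within each library, a description chosen after the values were seen. Prkag3 was at 0.688% ± 0.0291 of the Myh4 level in labelled WT and 0.404% ± 0.0490 in labelled strNrip1-/- sedentary muscle, and at 0.533% ± 0.0803 and 0.373% ± 0.0355 in trained muscle (SD, n = 3 each). Over both training states the labels overlapped narrowly, at 0.440% to 0.718% and 0.334% to 0.461%. Within each training state alone they did not overlap. Set against Actn3, the gap was narrower, at 1.97% ± 0.0214 and 1.70% ± 0.199 in sedentary and 1.81% ± 0.319 and 1.62% ± 0.118 in trained muscle. There the labelled genotypes did not overlap in sedentary libraries. They overlapped in trained libraries, where labelled WT trained replicate 2 was lowest. Prkab2 was at 1.05% ± 0.0366 and 1.01% ± 0.0594 of Myh4 in sedentary and at 0.880% ± 0.0201 and 0.800% ± 0.0478 in trained muscle. Prkaa2 was at 0.239% ± 0.0217 and 0.268% ± 0.0221 and at 0.223% ± 0.0108 and 0.221% ± 0.0262. Against Actn3, Prkab2 and Prkaa2 were higher in every labelled strNrip1-/- library than in any labelled WT library. The mean of Prkab2 in labelled strNrip1-/- muscle was thus slightly lower relative to Myh4 and higher relative to Actn3. That of Prkaa2 was higher relative to both in sedentary muscle and about equal relative to Myh4 in trained muscle.

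Markers of other cell types were examined in the same way. Of 8 slow-fiber, 8 macrophage, 5 blood, 8 fibroblast and tendon and 6 Schwann cell markers, limma called none in the averaged genotype contrast, and 1, 1, 1, 1 and 0 reached an unadjusted p under 0.05. For the macrophage list and the last 2 of these lists the sign of the median differed between the training states. The median log2 fold change of Schwann cell markers was -0.30 in sedentary and 0.31 in trained muscle. That of fibroblast and tendon markers was 0.23 and -0.26, and that of macrophage markers 0.10 and -0.097. Slow-fiber markers summed to 128 to 418.4 (labelled WT) and 153.3 to 433.3 FPKM (labelled strNrip1-/-) in sedentary libraries. Trained libraries held 115.8 to 721.8 and 181.2 to 332.1 FPKM. Of these, Myh7 was highest in labelled WT trained replicate 2 (49.99 FPKM), the lowest labelled WT library for Prkag3. Next were labelled WT sedentary replicate 2 and labelled strNrip1-/- sedentary replicate 1, lowest and highest of their groups for Prkag3. Links to the AMPK values were not tested. All 8 endothelial markers had positive values in the average, with a median of 0.22. Of these, 4 reached an unadjusted p under 0.05 and 2 were called (Cdh5 and Tie1). Of 6 muscle identity genes Mb (myoglobin) was called higher and Acta1 lower. Of 6 adipocyte markers 5 were tested, and limma called none (2 at an unadjusted p under 0.05). All 5 had positive values in the average, with a median of 0.76, and their summed level was 12.4 to 25.5 FPKM in labelled WT and 43.1 to 116 FPKM in labelled strNrip1-/- sedentary libraries, and 35.1 to 76.9 and 43.8 to 113 FPKM in trained libraries. Their part in the AMPK values was not tested. In the averaged training contrast Col1a1 was the single marker called.

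Genes around the members in the pathway were described from lists chosen by function. Among 15 tested genes of the LKB1 complex and other AMPK regulators, 1 was called higher and 1 lower in the averaged genotype contrast, with a median log2 fold change of -0.10 against 0.00 over all genes. The call rate over all tested genes was 8.80%. Of the 15, 11 had a negative value and 9 reached an unadjusted p under 0.05, against 24.1% of all tested genes. Tab1, a partner of the kinase TAK1, was at 6.19 to 8.04 FPKM in labelled WT and 9.60 to 11.9 FPKM in labelled strNrip1-/- libraries and rose by 0.62 (SE 0.0720, limma adjusted p = 2.976e-04). Sesn3, a sestrin that promotes AMPK activity, was at 1.88 to 2.08 and 0.984 to 1.45 FPKM and fell by 0.46 (SE 0.0864, limma adjusted p = 0.00572). Neither overlapped between the labelled genotypes. Separation in the direction of Sesn3 was seen for 3.23% of all tested genes, and the share in the direction of Tab1 is not given here. Cab39 (MO25α of the LKB1 complex) and Flcn (folliculin) reached an adjusted p of 0.0208 and 0.0423, with log2 fold changes of -0.21 and -0.23 that did not reach 1.2-fold. Camkk1 and Ppm1e were below the filter.

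Of the 19 AMPK substrates tested, 3 were called higher and 1 lower in the averaged genotype contrast, with a median of 0.05. The call rate over all tested genes was 8.80%. Of the 19, 5 reached an unadjusted p under 0.05 with limma, against 24.1% of all tested genes. Tbc1d4 (AS160), a Rab GTPase-activating protein of glucose transporter traffic, ran from 2.96 to 5.48 FPKM in labelled WT and from 5.90 to 9.81 FPKM in labelled strNrip1-/- libraries, and it rose by 0.78 (SE 0.131, limma adjusted p = 0.00304). Gys1, muscle glycogen synthase, ran from 133 to 155 and from 159 to 184 FPKM and rose by 0.28 (SE 0.0369, limma adjusted p = 7.838e-04). Pfkfb2, whose enzyme makes a regulatory sugar phosphate that activates glycolysis, rose by 0.36 (SE 0.0839, limma adjusted p = 0.0182). Srebf1, a regulator of lipid synthesis, fell by 0.70 (SE 0.0868, limma adjusted p = 4.851e-04), from 14.4 to 23.4 FPKM in labelled WT to 10.1 to 13.4 FPKM in labelled strNrip1-/- libraries. Ppargc1a (PGC-1α) was at -0.16 (adjusted p = 0.304) and Acacb (acetyl-CoA carboxylase of muscle) at 0.23 (adjusted p = 0.128). These are transcript levels, and the phosphorylation by which AMPK acts on these proteins was not measured in this table.

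None of the 10 tested AMPK-related kinases, which LKB1 also activates, was called, with a median of 0.08 and 2 more (Brsk1 and Brsk2) below the filter. Limma called 0 of them in each of the 7 contrasts, and in the averaged genotype contrast 3 reached an unadjusted p under 0.05, against 24.1% of all tested genes. Among 6 tested calmodulin-dependent kinases Camk2a was called lower by 0.53 (SE 0.0643, limma adjusted p = 4.329e-04), from 231 to 281 FPKM in labelled WT to 161 to 202 FPKM in labelled strNrip1-/- libraries. Of the 6, 3 reached an unadjusted p under 0.05 in that contrast, and 3.91% of all tested genes were called lower. No gene of these 4 lists was called for training by limma. In the averaged training contrast 1 regulator, 2 related kinases, 5 substrates and 3 calmodulin-dependent kinases reached an unadjusted p under 0.05, of 15, 10, 19 and 6 tested and against 11.5% of all tested genes.

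**Figure D4:**
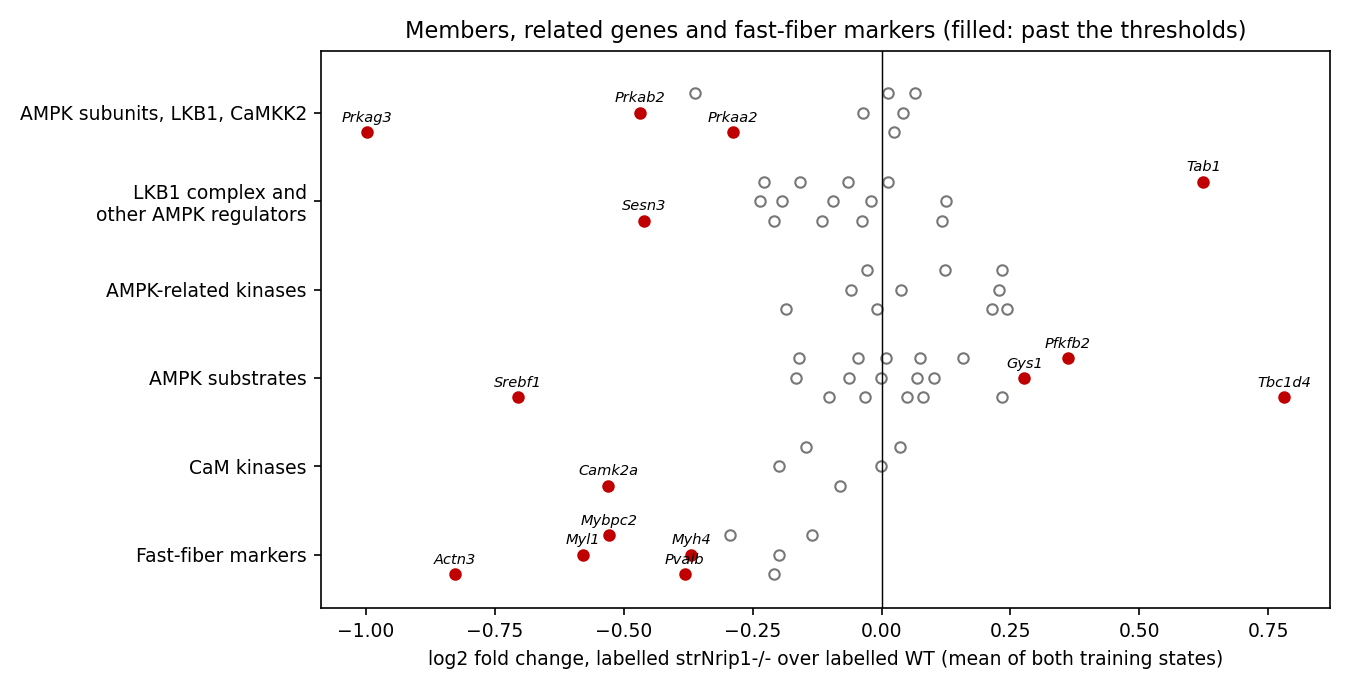
Effect of the label strNrip1-/- relative to the label WT (log2 scale), averaged over both training states (x axis) for each tested gene of 6 lists (y axis, points offset within a list for legibility). Filled red points passed an adjusted p of 0.05 and a fold change of 1.2 and carry their names. Prkag3 is the leftmost point of all, at -0.998, and the fast-fiber markers all lie to the left of 0.

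The genes with the most similar pattern to each called member over the 12 libraries were found by Pearson's r of log2(FPKM + 0.5), given as a description. For Prkag3 they were Psme4 (0.979), Reep1 (0.976) and Aebp1 (0.970). For Prkab2 they were Crot (0.974), Pla2g7 (0.962) and Hook1 (0.957), and for Prkaa2 Hipk3 (0.974), Msrb3 (0.968) and Klhl31 (0.967). Among the members themselves r was 0.921 between Prkab2 and Prkag3, 0.911 between Prkaa2 and Prkab2 and 0.897 between Prkaa2 and Prkag3. All of these values share the same 12 libraries and the same 2 labelled genotypes.

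The promoters of the 3 called members are shown because these genes were lower together, and they differ in base composition. Windows from 250 bases before to 50 bases after the annotated start were taken from RefSeq (GRCm38.p6), and the parts outside annotated exons are printed 5′ to 3′ on the gene's strand. Capitals mark GGGCGG on either strand, the core of the binding site of SP1, a factor of many constitutive promoters. The stretches are chr4:105109899-105110148 (minus strand) for Prkaa2 and chr3:97657962-97658192 (plus strand) for Prkab2.
Prkaa2: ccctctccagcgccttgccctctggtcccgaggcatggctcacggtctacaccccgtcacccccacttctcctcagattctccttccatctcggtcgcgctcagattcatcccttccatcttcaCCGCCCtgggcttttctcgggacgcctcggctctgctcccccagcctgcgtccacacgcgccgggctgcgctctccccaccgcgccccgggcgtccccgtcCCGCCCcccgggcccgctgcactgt
Prkab2: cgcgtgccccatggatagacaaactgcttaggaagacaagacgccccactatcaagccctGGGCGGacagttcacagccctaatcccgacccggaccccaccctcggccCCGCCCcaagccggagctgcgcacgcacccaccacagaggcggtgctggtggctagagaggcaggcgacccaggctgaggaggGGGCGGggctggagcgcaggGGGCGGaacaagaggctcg
The Prkaa2 window was 72.7% G and C and held 2 such boxes, and that of Prkab2 was 68.0% and held 5, of which 4 lie in the printed stretch. At least 1 box was found in 35.7% of 32851 promoter windows, whose median G and C content was 52.7%. Among members not called, the window of Prkaa1 held 5 boxes, Prkag1 2, Stk11 1, Camkk2 1 and Prkab1 0. The 3 windows of Prkag2 held 2, 0 and 1. A link between boxes and fold changes was not tested. The Prkag3 window was 54.0% G and C and held no GGGCGG. It lies in an annotated exon and held 1 E-box (CANNTG on either strand, the site type of myogenic factors such as MyoD), which 72.3% of all windows hold. The 30 bases around this E-box, chr1:74748978-74749007 on the minus strand, are printed with the motif in capitals.
Prkag3: gcagtgcgggaaCAGCTGcgggttaagcgc
The nuclear receptor half-site AGGTCA was in none of the 3 windows and in 16.3% of all windows, searched on both strands. A match is a description of letters and not of binding.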

How the data were processed

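RNA-seq was performed on 12 EDL libraries, grouped by the sample labels. Per the submitters' processing notes, the authors quantified reads with Salmon 1.10.2 on mm10 and tested them with DESeq2 1.44.0. The authors deposited the expression of each gene and library in FPKM. Their own log2 fold changes and adjusted p-values, also deposited, were not used. The annotation release and the FPKM function are not given in the sources used here.

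FPKM is no count, so limma 3.58.1 was applied to log2(FPKM + 0.5) for the 12744 genes whose mean reached 0.5 FPKM, with 4 group means and two-sided tests adjusted by Benjamini-Hochberg over all genes of a contrast. The fold change on this scale understates that of low genes. The script was tested on simulated data. The depth scale of the FPKM was estimated from 1613 single-transcript genes, in which 99.0% to 99.7% of low values were whole multiples of 1 fragment within 0.15 (30% by chance). It covers counting error only.

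Members and lists were chosen with earlier results of these data known. All 9 members are named. From each related list up to 6 called genes are named by smallest adjusted p, and 3 genes by highest r for each called member. Cab39, Flcn, Ppargc1a and Acacb were named after their values were seen. Gene coordinates are from GENCODE on GRCm38, 1-based, and promoters from RefSeq. Protein sequences were not used here. Alternatives covered the pseudocount (0.1, 1), the filter (none, 5 FPKM), 3 rescalings, the variance prior, fits to the libraries of a contrast, a replicate block and leaving out each library.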

Additional observations from a re-analysis of the deposited data

How the results depend on the processing

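The lower level of Prkag3 with the label strNrip1-/- passed in both training states under every alternative. The members called in sedentary libraries were 1 in place of 2 (Prkag3 alone) under quantile normalization, rescaling on nuclear genes and a fit to the 6 sedentary libraries, and 1 to 2 when 1 library was left out. In trained libraries rescaling to the same sum left 1 of 3, and leaving out 1 library left 3. In the average, 3 were called without labelled WT trained replicate 1, with Prkag2 in the place of Prkaa2. The cause was not tested.

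Effects near 0 turned sign. With rescaling to the same sum the averaged genotype effect was -0.0022 for Prkab1, -0.021 for Stk11 and -0.027 for Camkk2, and the Prkaa2 interaction was 0.0061. With quantile normalization Camkk2 was at -0.0062 and the training effect on Prkag3 in labelled strNrip1-/- muscle at -0.026. Rescaling on nuclear genes put the latter at -0.013 and Prkag1 at 0.023. Leaving out 1 library, the averaged genotype effect ran from -0.029 to 0.088 for Prkab1, from -0.089 to 0.0090 for Prkag1, from -0.012 to 0.058 for Stk11 and from -0.078 to 0.09999 for Camkk2, and the Prkag3 training effect from -0.105 to 0.099. Of the other 39 member and contrast pairs, 23 turned sign under some alternative and 0 became called.

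Subunit sums moved with the scale. At the same sum, α was 26.7 (labelled WT sedentary), 21.9 (labelled strNrip1-/- sedentary) and 22.2 FPKM (labelled strNrip1-/- trained), β was 75.9 FPKM in labelled strNrip1-/- sedentary, and γ was 114.3, 67.0 and 76.7 FPKM in the same order as α. On nuclear genes, α was 25.2 (labelled WT sedentary) and 21.4 FPKM (labelled strNrip1-/- trained), and γ was 74.6 FPKM (labelled strNrip1-/- sedentary). Rescaling to the same sum shifted the median of all genes by -0.139 for the sedentary genotype contrast and by 0.165 for training in labelled strNrip1-/- libraries.

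Over the whole table, 54.8% of sedentary and 53.7% of trained genotype calls were higher, against 18.6% and 80.9% at the same sum and 82.7% and 75.8% on nuclear genes. The count of called genes fell from 447 to 166 in a fit to the sedentary libraries and from 762 to 445 in the trained ones, and leaving out 1 library gave 164 to 482 and 315 to 874. For training it was 0 to 8 in labelled WT and 0 to 150 in labelled strNrip1-/- muscle, and 0 to 30 and 0 to 4 without 1 library. The averaged training contrast gave 10 to 28 in place of 15, and 1 to 189 without 1 library.

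Deviations from the group means correlated at -0.052 to 0.195 between same-numbered replicates and at -0.177 to 0.11 between differently numbered ones. The highest values, 0.195 and 0.162, were of labelled WT sedentary replicate 2 with other replicates numbered 2. The ranges overlapped, and the numbers were not taken to pair the libraries. With the replicate number as a block, the members called were 2 (sedentary) and 3 (trained), as without it, no other member call changed, and the genes called for training in labelled WT went from 0 to 4. For genes whose interval spans 0, effects of the size within it were not excluded with 3 libraries a group. The intervals are not adjusted over genes and are no limit of detection.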
